A study of Macaca mulatta with 10 samples.

Results

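Chemokines, interleukins, ligands of the tumour necrosis factor (TNF) superfamily and the receptors of these factors were followed during the differentiation of rhesus macaque embryonic stem (ES) cells. The genes were taken by their annotated symbols, those that start with CXCL, CXCR, TNFSF or TNFRSF and those that start with CCL, CCR or IL followed by a digit. The rule gave 118 of the 13191 genes measured, and 1 further CXCL gene is not analysed here. By symbol they were sorted into 7 CXC chemokines, 18 CC chemokines, 10 chemokine receptors, 31 interleukins, 31 interleukin receptor chains, 8 TNF superfamily ligands and 13 TNF superfamily receptors. IL1RN, a receptor antagonist, was counted with the interleukins, and so was IL4I1, an enzyme named after an interleukin.

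Total RNA of ORMES6, a rhesus ES cell line, was hybridised to Affymetrix rhesus arrays in 5 groups of 2 arrays. Undifferentiated cells (ES) were kept on mouse embryonic fibroblast (MEF) feeders with 20% serum replacement and 4 ng/ml bFGF, and the labels give this growth condition for every group. To form hepatic foci, the cells were grown together with hESdF, a fibroblast-like population derived from human ES cells. The differentiated groups were cells at stage 2 of in vitro differentiation (IVDS2), the centre of stage 2 colonies (IVDS2-C), their periphery (IVDS2-P), and cells at stage 3 (IVDS3). All groups come from 1 cell line, and no label states that the repeats were separate cultures. The p-values therefore measure the spread between these samples, which may be technical. An array reads the RNA of all cells in a sample, so mouse feeder or human co-cultured cells could add signal, and fewer cells of a type and less RNA per cell cannot be told apart.

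Chemokines are small secreted proteins that guide migrating cells through receptors of the seven-transmembrane class. Interleukins and TNF superfamily ligands carry signals between cells, and most of their receptors act through JAK-STAT proteins, through MyD88 and IRAK adaptors or through TRAF proteins, the last of these leading to NF-kB. Epithelial cells make many of these factors themselves, and several pathways are held in check by secreted antagonists such as IL1RN and IL36RN or by decoy receptors such as IL1R2 and TNFRSF11B.

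The deposited values are log2 expression values that were centred on the median of the 10 arrays for each probe set, so a level can be compared between arrays but not read in absolute terms. A gene's value is the mean of its probe sets, and the 118 genes were read by 182 probe sets, with 73 genes on 1 probe set. Differences are given on the log2 scale with the standard error (SE) of a limma fit to all 10 arrays (n = 2 arrays per group). A gene was called, and is said to have risen or fallen, where the Benjamini-Hochberg adjusted p over all 13191 genes was under 0.05. The SD of the difference between the repeats over the 118 genes was 0.40 in ES, 0.28 in IVDS2, 0.36 in IVDS2-C, 0.25 in IVDS2-P and 0.22 in IVDS3. ES replicate 2 lay above ES replicate 1 at 93 of the 118 genes, with a median difference of 0.22 against 0.03 over all genes. Of the 10 measured pluripotent cell markers, 8 had fallen at IVDS3, from POU5F1 (-7.60 ± 0.79), while NANOG had risen (1.48 ± 0.19).

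Against ES, cytokine and receptor genes were called most often at IVDS3 and next in IVDS2-C, an order also seen over all genes. By adjusted p alone they were called less often than all genes in each group. With an added 2-fold threshold, given below, they were not called less often. At IVDS3 most of the called genes were higher than in ES cells. Of the 118 genes, 41 (34.7%) were called between IVDS3 and ES, 29 (24.6%) higher and 12 (10.2%) lower. Of all genes 49.7% were called (21.1% higher and 28.6% lower). In IVDS2-C against ES 21 of the 118 genes (17.8%) were called, 15 higher and 6 lower, against 30.1% of all genes (13.7% higher and 16.5% lower). In IVDS2 against ES 9 (7.63%) were called, 6 higher and 3 lower, against 12.7% of all genes (6.5% higher and 6.23% lower). In IVDS2-P against ES it was 7 (5.93%), 5 higher and 2 lower, against 11% of all genes (6.31% higher and 4.67% lower). The 4 comparisons share the ES arrays. For fits that left out an array, here and below, the share of all genes is not given. Those counts therefore cannot be set against all genes. Without ES replicate 1 the counts were 60 for IVDS3, 37 for IVDS2-C and 23 for IVDS2-P, with 30, 23 and 17 genes lower than in ES. Without IVDS2 replicate 2 the count for IVDS2 was 4, and without IVDS2-P replicate 2 that for IVDS2-P was 4.

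Between centre and periphery 11 of the 118 genes (9.32%) were called, against 9.59% of all genes. Of the 11, 10 were higher in the centre (8.47%, all genes 5.64%) and 1 was lower (0.847%, all genes 3.95%). Between IVDS3 and IVDS2 it was 40 (33.9%), against 39.7% of all genes. Of the 40, 27 were higher (22.9%, all genes 17.6%) and 13 lower (11%, all genes 22.2%). A further pair of comparisons was chosen after the data were seen. Between IVDS3 and IVDS2-C 32 genes (27.1%) were called, against 21.9% of all genes. Of the 32, 23 were higher (19.5%) and 9 lower (7.63%), against 10.9% of all genes in either direction. Between IVDS2-C and IVDS2 it was 8 (6.78%), each of them higher in the centre, against 5.81% of all genes (4.03% higher and 1.78% lower). The calls between centre and periphery numbered 6, 5 and 7 when IVDS2-C replicate 2, IVDS2-P replicate 1 or IVDS2-P replicate 2, respectively, was left out. The count between IVDS3 and IVDS2-C was 20 without IVDS2-C replicate 1. The count between IVDS2-C and IVDS2 was 3 without IVDS2 replicate 2, 4 without IVDS2-C replicate 2, and 5 without IVDS3 replicate 1 or 2.

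With an added 2-fold threshold 23 of the 118 genes (19.5%) were called between IVDS3 and ES, against 19.4% of all genes. It was 15 (12.7%) between IVDS2-C and ES, against 9.53% of all genes. Between IVDS2 and ES it was 6 (5.08%, all genes 4.89%), and between IVDS2-P and ES 6 (5.08%, all genes 3.9%). Centre and periphery then differed at 10 genes (8.47%, all genes 4.16%), and IVDS3 and IVDS2 at 22 (18.6%, all genes 14.4%). IVDS3 and IVDS2-C differed at 21 (17.8%, all genes 8.51%), and IVDS2-C and IVDS2 at 6 (5.08%, all genes 2.67%).

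Median differences over the 118 genes lay near 0 and near those of all genes. For IVDS3 against ES the median was -0.11 (all genes -0.13), and for centre against periphery it was 0.05 (all genes -0.03). In at least 1 of the 6 planned comparisons 55 of the 118 genes were called (46.6%), against 60.1% of all genes. These were all 7 CXC chemokines, 6 of 18 CC chemokines, 2 of 10 chemokine receptors, 16 of 31 interleukins, 14 of 31 interleukin receptor chains, 4 of 8 TNF superfamily ligands and 6 of 13 TNF superfamily receptors.

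**Figure D1:**
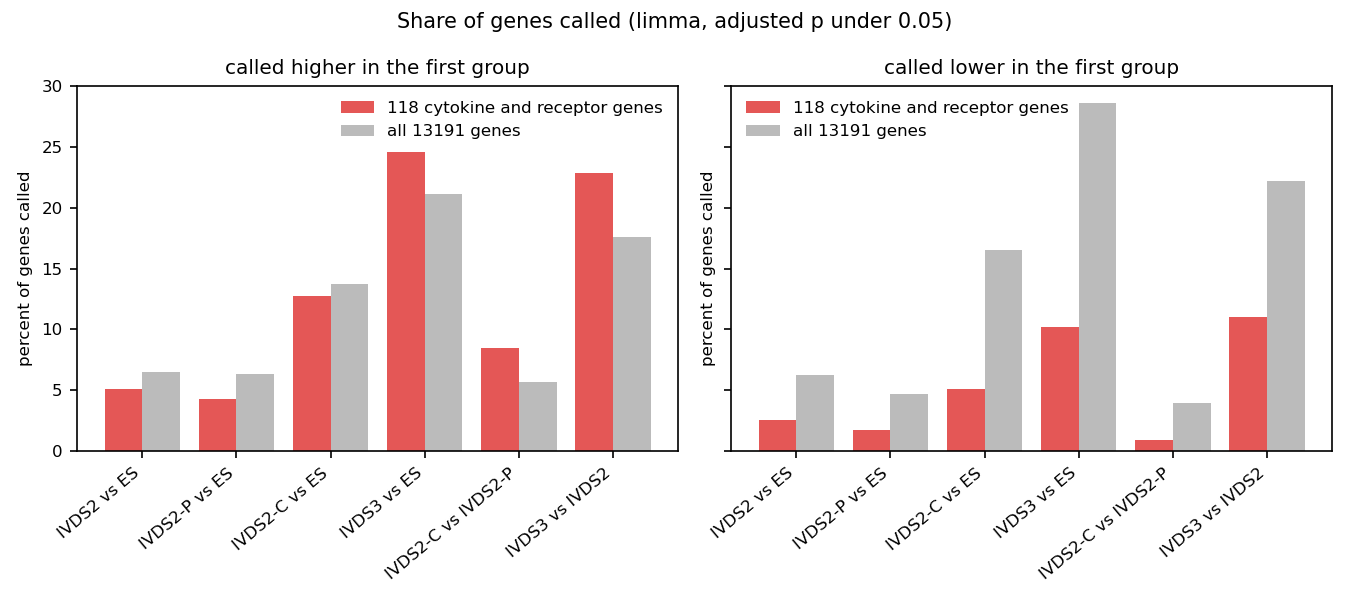
Percent of genes called higher (left) and lower (right) in the first-named group of each of the 6 planned comparisons, for the 118 cytokine and receptor genes (red bars) and for all 13191 genes (grey bars). In IVDS3 against ES the red bar stands at 24.6% higher and 10.2% lower, and the grey bar at 21.1% and 28.6%.

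**Figure D2:**
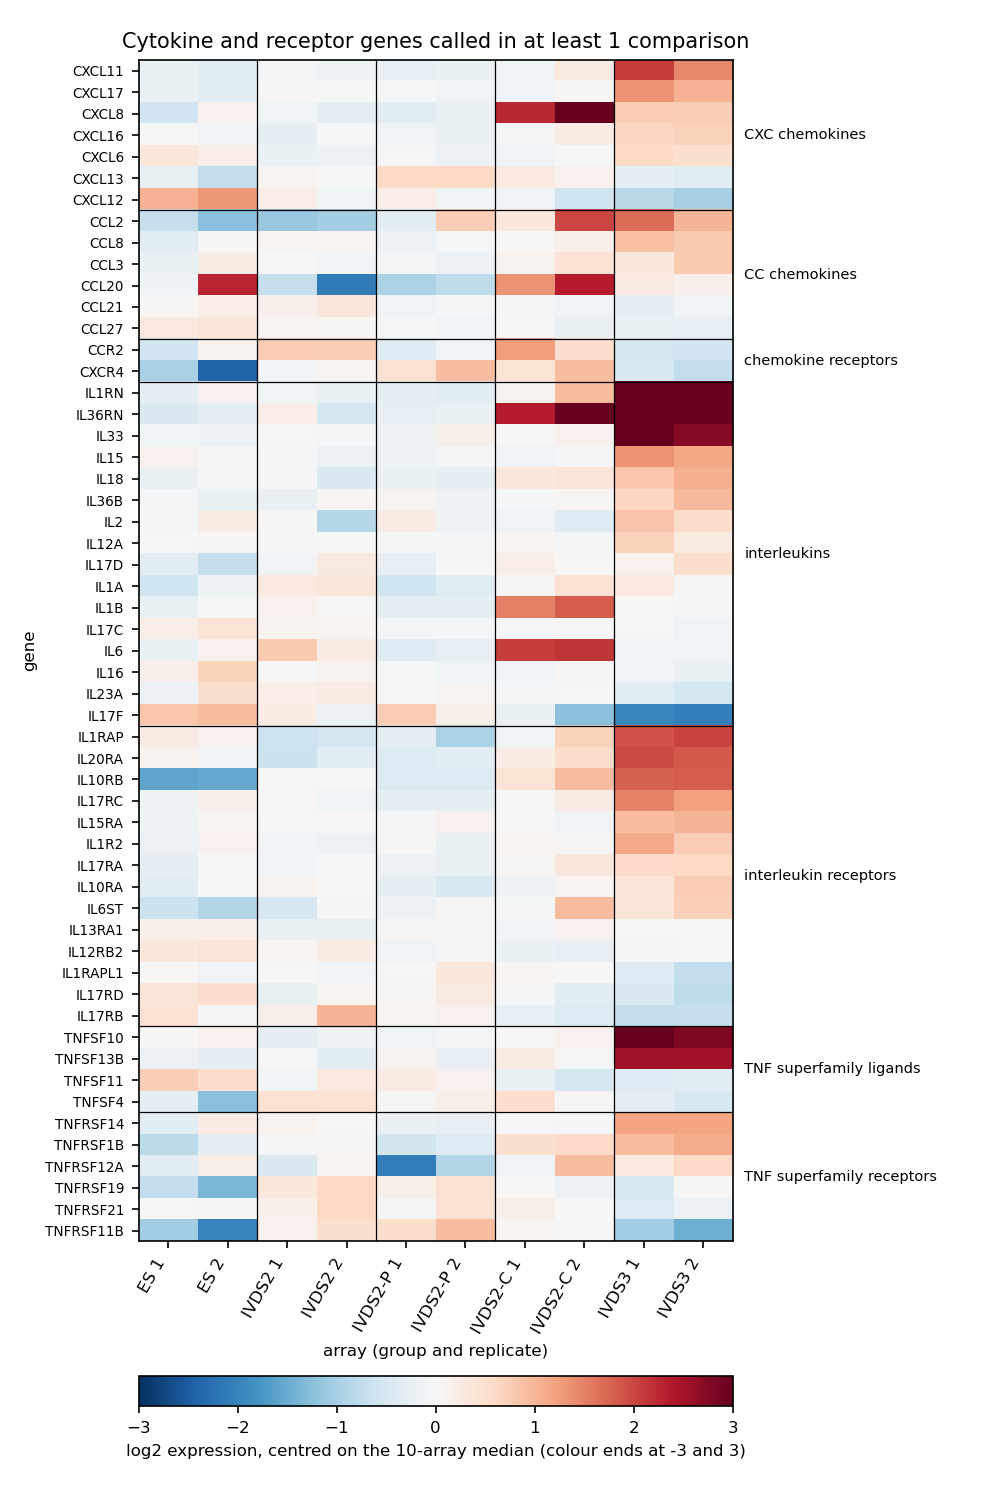
Log2 expression, centred on the 10-array median, of the 55 genes called in at least 1 planned comparison (rows, by class) on each array (columns, by group and replicate), with colours ending at -3 and 3. The dark red cells of IL1RN, IL33, TNFSF10 and TNFSF13B lie under IVDS3, those of IL6 and CXCL8 under IVDS2-C, and those of IL36RN under both.

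Among the interleukins, the widest spans of group means were those of IL1RN, IL36RN, IL33, IL17F and IL6. IL1RN, the secreted antagonist of the IL-1 receptor, read -0.29 and 0.13 on the ES arrays, -0.12 and -0.20 in IVDS2, 0.10 and 0.96 in IVDS2-C, -0.27 and -0.32 in IVDS2-P, and 5.05 and 4.80 in IVDS3. It was high at stage 3 and, among the others, read highest on IVDS2-C replicate 2. Against ES it had risen by 5.01 ± 0.25 (32.2-fold, adjusted p = 1.71e-06), and its 3 probe sets gave 5.89, 4.95 and 4.19.

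IL36RN, the antagonist of the IL-36 receptor, read -0.44 and -0.28 in ES, 0.20 and -0.53 in IVDS2, 2.36 and 3.16 in IVDS2-C, -0.24 and -0.20 in IVDS2-P, and 3.96 and 4.48 in IVDS3. The centre arrays were already high while the periphery arrays stayed near ES, and IVDS3 did not overlap with any other group. The centre exceeded the periphery by 2.98 ± 0.30 (7.89-fold, adjusted p = 0.000945), and IVDS3 exceeded ES by 4.58 ± 0.30 (23.9-fold, adjusted p = 6.66e-06). The step from IVDS2-C to IVDS3 was 1.46 ± 0.30 (adjusted p = 0.00853), and this call was lost without IVDS2-C replicate 1 or IVDS3 replicate 2 (adjusted p from 0.0594 to 0.0678).

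IL33, an alarmin stored in the nucleus of epithelial cells, read from -0.17 to 0.18 on the 8 arrays outside IVDS3, and 3.21 and 2.74 in IVDS3. Its rise over ES was 3.13 ± 0.17 (8.72-fold, adjusted p = 2.38e-06). IL1RL1, the chain that binds IL33, was called in none of the comparisons and had a range of 0.33 over the 10 arrays. IL36B, an agonist of the IL-36 receptor, rose less (0.93 ± 0.16, adjusted p = 0.00105), and so did IL18, which is cut by inflammasome caspases (1.09 ± 0.16, adjusted p = 0.000524). IL18 rose over IVDS2-C too (0.62 ± 0.16), a call lost without either array of IVDS2-C or of IVDS3 (adjusted p from 0.0568 to 0.152).

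IL1B and IL6, 2 inflammatory cytokines, were high in the colony centre and not at stage 3. IL1B read -0.22 and -0.01 in ES, 0.12 and -0.00 in IVDS2, 1.50 and 1.82 in IVDS2-C, -0.27 and -0.26 in IVDS2-P, and 0.01 and -0.06 in IVDS3. IL6 read -0.19 and 0.13 in ES, 0.79 and 0.25 in IVDS2, 2.06 and 2.13 in IVDS2-C, -0.39 and -0.24 in IVDS2-P, and -0.08 and -0.10 in IVDS3. For both genes the centre arrays stood above the 8 others.

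The centre exceeded the periphery by 1.93 ± 0.13 for IL1B (3.8-fold, adjusted p = 0.000252) and by 2.41 ± 0.18 for IL6 (5.31-fold, adjusted p = 0.000278). At IVDS3 both were lower than in the centre (-1.68 ± 0.13 for IL1B, adjusted p = 4.96e-05, and -2.19 ± 0.18 for IL6, adjusted p = 6.21e-05). Leaving out any 1 array kept these calls. The 3 probe sets of IL1B gave 1.15, 3.39 and 1.23 between centre and periphery, and the 2 of IL6 gave 1.99 and 2.83. IL6 was also lower at IVDS3 than at IVDS2 (-0.61 ± 0.18, adjusted p = 0.0245), which missed the threshold without IVDS2 replicate 1 or either IVDS3 array (adjusted p from 0.0935 to 0.16). IL1A, the other IL-1 agonist, rose in IVDS2-C against ES (0.61 ± 0.20, adjusted p = 0.0432) and lost the call without 8 of the 10 arrays, all but ES replicate 2 and IVDS2-C replicate 1 (adjusted p from 0.0524 to 0.257).

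**Figure D3:**
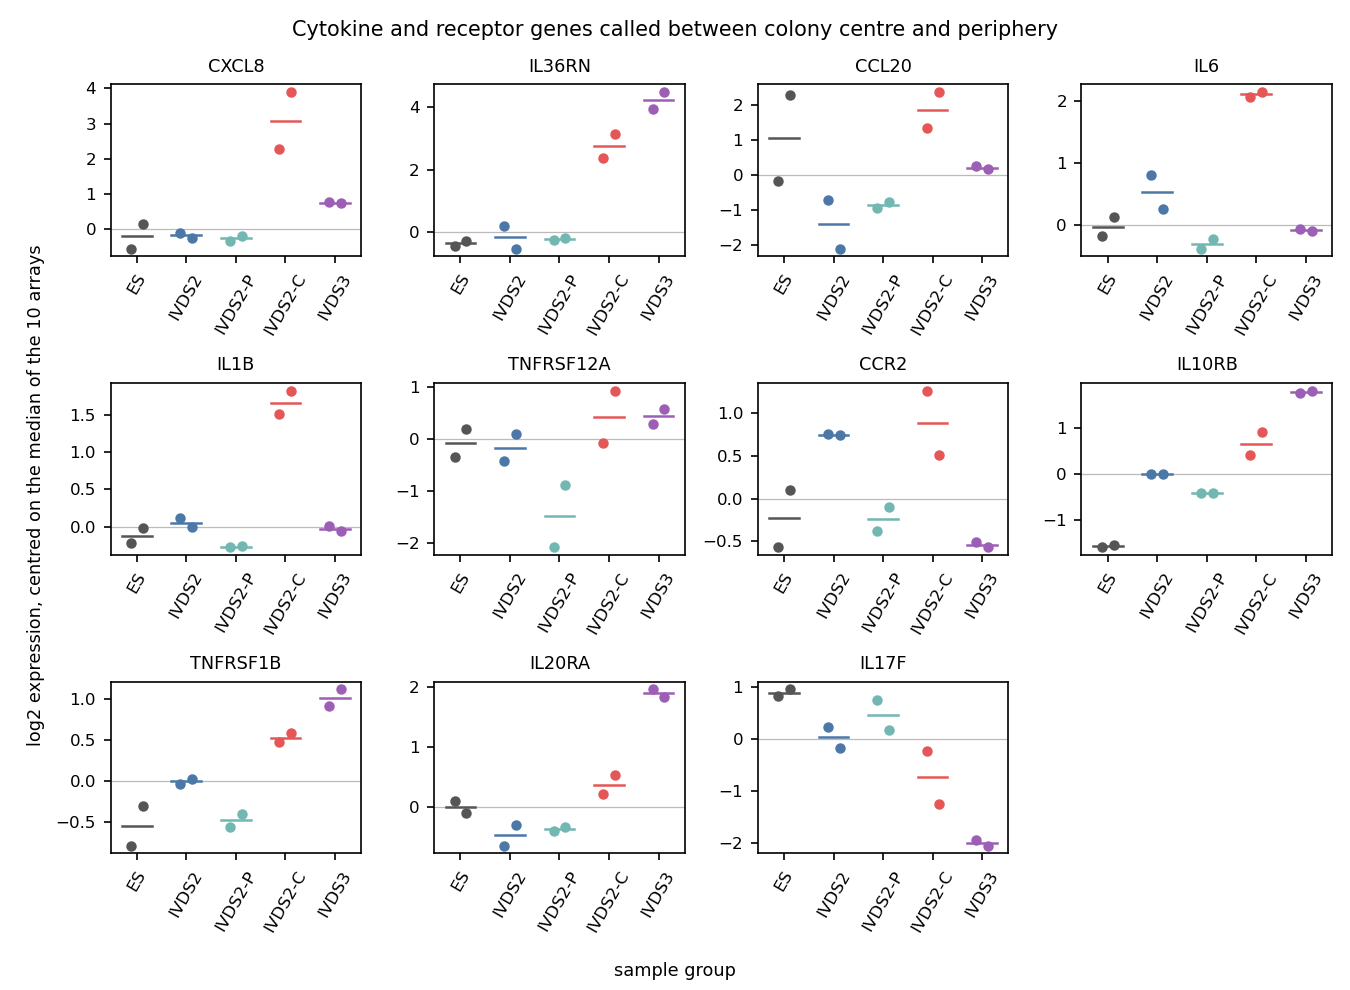
Log2 expression, centred on the 10-array median (vertical axes), of the 11 genes called between IVDS2-C and IVDS2-P, by group (horizontal axes), with 1 point per array and a line at the group mean. CXCL8, IL6 and IL1B are high in IVDS2-C alone, IL36RN, IL10RB, IL20RA and TNFRSF1B are highest in IVDS3, and IL17F is lowest there.

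IL15, which sustains natural killer and T cells, and its private receptor chain IL15RA both rose at stage 3. IL15 read 0.13 and 0.04 in ES, from -0.18 to -0.02 on the 6 stage 2 arrays, and 1.35 and 1.17 in IVDS3 (1.18 ± 0.12 over ES, adjusted p = 5.57e-05). IL15RA read from -0.16 to 0.13 on the 8 other arrays, and 0.94 and 1.01 in IVDS3 (1.02 ± 0.12, adjusted p = 0.000136). The IVDS3 arrays of both genes lay above all others.

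IL17F, a cytokine that acts on epithelial cells, was the interleukin with the largest fall. It read 0.82 and 0.95 in ES, 0.23 and -0.17 in IVDS2, -0.23 and -1.25 in IVDS2-C, 0.75 and 0.16 in IVDS2-P, and -1.95 and -2.05 in IVDS3. The ES arrays were highest and the IVDS3 arrays lowest, with the centre below the periphery. The fall from ES to IVDS3 was -2.89 ± 0.31 (7.41-fold lower, adjusted p = 8.24e-05), with -3.50, -1.86 and -3.31 on its 3 probe sets. The centre was lower than the periphery by -1.20 ± 0.31 (adjusted p = 0.045), and this call was lost without any array but IVDS2-C replicate 1 (adjusted p from 0.0568 to 0.287). Its call between IVDS3 and IVDS2-C (-1.26 ± 0.31, adjusted p = 0.0193) was lost without IVDS2-C replicate 1 or either IVDS3 array (adjusted p from 0.0837 to 0.107).

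The RefSeq gene table places IL17F next to MCM3, a subunit of the replicative helicase, and the values of MCM3 were looked up after those of IL17F had been seen. MCM3 read 0.47 and 0.20 in ES, 0.07 and 0.26 in IVDS2, -0.75 and -1.47 in IVDS2-C, 0.00 and -0.00 in IVDS2-P, and -3.17 and -2.82 in IVDS3. It fell by 3.33 on the log2 scale from ES to IVDS3 (SE 0.23), and like IL17F it was lowest in IVDS3 and next lowest in IVDS2-C. Its part in the IL17F result was not tested.

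The other called interleukins changed by less. At IVDS3 IL17D (0.83 ± 0.20) and IL12A (0.48 ± 0.14) were higher than in ES, and IL23A (-0.59 ± 0.19), IL16 (-0.57 ± 0.16) and IL17C (-0.37 ± 0.11) were lower. IL2 was higher at IVDS3 than at IVDS2 (1.11 ± 0.28) and read 0.04 and -0.86 on the IVDS2 arrays and 0.85 and 0.56 on those of IVDS3. Each of these 6 calls was lost without some array. For IL17D it was ES replicate 2 or IVDS3 replicate 2 (adjusted p from 0.0561 to 0.0674), and for IL12A either ES array or IVDS3 replicate 1 (0.0511 to 0.16). For IL23A, IL16 and IL17C it was ES replicate 2 or either IVDS3 array (adjusted p from 0.0521 to 0.153), and for IL2 it was IVDS2 replicate 2 or IVDS3 replicate 1 (0.0681 to 0.0818). The 15 interleukins called in no planned comparison include the anti-inflammatory IL10 and the type 2 cytokine IL13.

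All 7 CXC chemokines were called at least once, in different groups. CXCL8, the attractant of neutrophils, read -0.57 and 0.13 in ES, -0.13 and -0.26 in IVDS2, 2.26 and 3.89 in IVDS2-C, -0.35 and -0.20 in IVDS2-P, and 0.76 and 0.73 in IVDS3. Both centre arrays stood above all others, although they differed by more than the repeats of any other group. The centre exceeded the periphery by 3.35 ± 0.43 (10.2-fold, adjusted p = 0.00252), and IVDS3 was lower than the centre by -2.33 ± 0.43 (adjusted p = 0.00497). CXCL8 was not called between IVDS3 and ES (0.97 ± 0.43, adjusted p = 0.0927). That difference was called without either IVDS2-C array (adjusted p = 0.00496). The centre exceeded whole IVDS2 cultures by 3.27 ± 0.43 (adjusted p = 0.00767), but not past the threshold once IVDS2 replicate 2 was left out (adjusted p = 0.0696).

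CXCL12, the ligand of CXCR4, read 1.04 and 1.31 in ES, 0.21 and -0.13 in IVDS2, -0.13 and -0.60 in IVDS2-C, 0.19 and -0.13 in IVDS2-P, and -0.82 and -0.99 in IVDS3. Its receptor CXCR4, which also marks definitive endoderm, read -0.97 and -2.40 in ES, -0.08 and 0.08 in IVDS2, 0.41 and 0.92 in IVDS2-C, 0.45 and 0.93 in IVDS2-P, and -0.49 and -0.75 in IVDS3. In ES cells the ligand was thus at its highest and the receptor at its lowest, and the stage 2 arrays of either gene did not overlap with those of ES.

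CXCL12 fell from ES to IVDS3 by 2.08 on the log2 scale (SE 0.20, 4.23-fold, adjusted p = 4.18e-05). The fall rested mostly on 1 of its 3 probe sets, which gave -5.42, while the others gave -0.07 and -0.75. It also fell in IVDS2 (-1.13 ± 0.20), IVDS2-C (-1.53 ± 0.20) and IVDS2-P (-1.14 ± 0.20), and the IVDS2 difference missed the threshold without IVDS2 replicate 2 (adjusted p = 0.0556), as did that of IVDS2-P without ES replicate 2 or IVDS2-P replicate 2 (adjusted p from 0.0609 to 0.0799).

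CXCR4 exceeded ES by 1.68 ± 0.39 in IVDS2 (adjusted p = 0.0242), 2.35 ± 0.39 in IVDS2-C (adjusted p = 0.00261) and 2.37 ± 0.39 in IVDS2-P (adjusted p = 0.0069). Centre and periphery differed by -0.02 ± 0.39. The IVDS2 call was lost without ES replicate 2 or either IVDS2 array (adjusted p from 0.0672 to 0.125), and the IVDS2-P call without IVDS2-P replicate 2 (adjusted p = 0.0681). At IVDS3 the excess over ES was 1.06 ± 0.39 (adjusted p = 0.0495), lost without any array but ES replicate 1 (adjusted p from 0.0516 to 0.325). IVDS3 was lower than the centre by -1.28 ± 0.39 (adjusted p = 0.047), a call lost without 8 of the 10 arrays, all but those of ES (adjusted p from 0.0594 to 0.199).

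CXCL11, a ligand of CXCR3 made in response to interferon, read from -0.33 to 0.27 outside IVDS3, and 2.06 and 1.43 in IVDS3 (2.02 ± 0.20 over ES, adjusted p = 5.8e-05). CXCL17, a chemokine of mucosal surfaces, read from -0.32 to 0.03 outside IVDS3, and 1.34 and 1.05 in IVDS3 (1.46 ± 0.12, adjusted p = 2.37e-05). The membrane-bound CXCL16 rose by 0.73 ± 0.13 at IVDS3 against ES (adjusted p = 0.00164). For these 3 genes no array of another group reached those of IVDS3.

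CXCL6, another neutrophil attractant, read 0.34 and 0.21 in ES, -0.21 and -0.18 in IVDS2, -0.10 and 0.02 in IVDS2-C, -0.02 and -0.17 in IVDS2-P, and 0.59 and 0.47 in IVDS3. It fell from ES to IVDS2 (-0.47 ± 0.11, adjusted p = 0.0262), a call lost without ES replicate 1 or either IVDS2 array (adjusted p from 0.0654 to 0.109), and rose from IVDS2 to IVDS3 (0.73 ± 0.11, adjusted p = 0.00097). CXCL13, which guides B cells, was highest in the periphery. It read -0.21 and -0.73 in ES, 0.07 and -0.01 in IVDS2, 0.29 and 0.12 in IVDS2-C, 0.59 and 0.59 in IVDS2-P, and -0.29 and -0.37 in IVDS3. The periphery exceeded ES by 1.06 ± 0.16 (adjusted p = 0.00485), although 1 of its 3 probe sets gave -0.31 where the others gave 2.07 and 1.42. The centre exceeded ES by 0.68 ± 0.16 (adjusted p = 0.0137), which missed the threshold once IVDS2-C replicate 1 was left out (adjusted p = 0.0701), and periphery and centre were not called apart (adjusted p = 0.173). Without either ES array that difference was called (adjusted p = 0.0469), and without ES replicate 1 so were those from ES in IVDS2 (adjusted p = 0.00724) and IVDS3 (adjusted p = 0.0254).

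**Figure D4:**
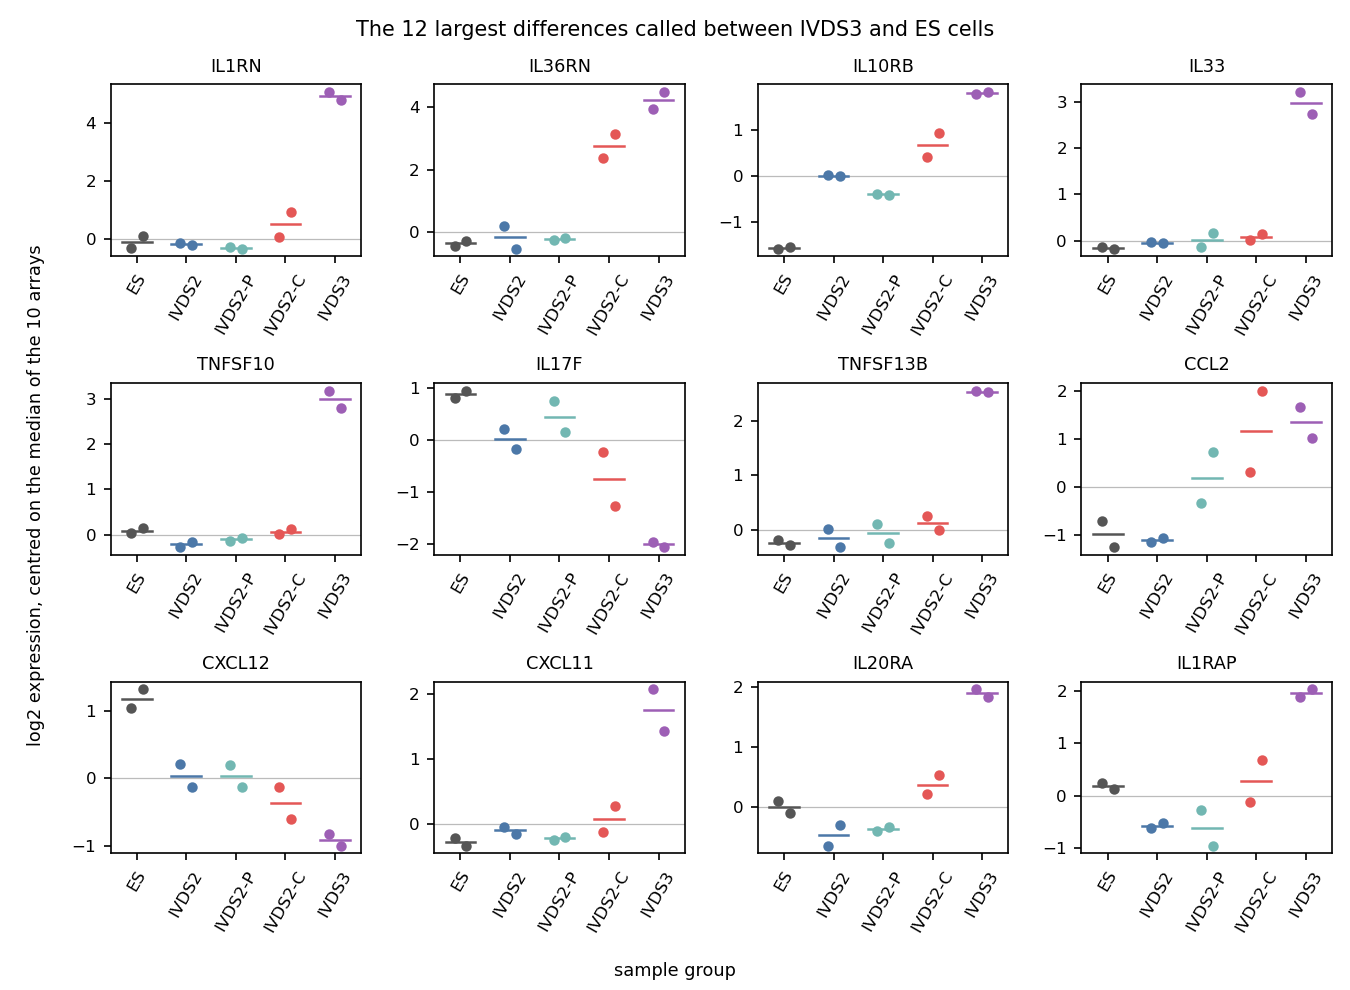
Log2 expression, centred on the 10-array median (vertical axes), of the 12 cytokine and receptor genes with the largest differences called between IVDS3 and ES, by group (horizontal axes), with 1 point per array and a line at the group mean. IL33, TNFSF10, TNFSF13B and CXCL11 are near 0 in the other 4 groups, IL36RN is also high in IVDS2-C, and IL17F and CXCL12 are lowest in IVDS3.

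Of the 18 CC chemokines, CCL2 and CCL20 had the widest spread between groups. CCL2, the monocyte attractant that binds CCR2, read -0.70 and -1.25 in ES, -1.13 and -1.05 in IVDS2, 0.32 and 2.01 in IVDS2-C, -0.32 and 0.73 in IVDS2-P, and 1.68 and 1.03 in IVDS3. The centre and stage 3 arrays were high, and centre and periphery overlapped. IVDS3 exceeded ES by 2.33 ± 0.52 (5.02-fold, adjusted p = 0.00522), and IVDS2-C exceeded it by 2.14 ± 0.52 (adjusted p = 0.0147). The latter call was lost without ES replicate 2 or IVDS2-C replicate 2 (adjusted p from 0.0809 to 0.0841).

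CCL20, the ligand of CCR6, read -0.16 and 2.28 in ES, -0.70 and -2.11 in IVDS2, 1.35 and 2.36 in IVDS2-C, -0.94 and -0.77 in IVDS2-P, and 0.25 and 0.16 in IVDS3. The ES arrays differed by 2.44, the widest gap between repeats among the 118 genes. The centre exceeded the periphery by 2.71 ± 0.72 (6.55-fold, adjusted p = 0.0473), which missed the threshold without IVDS2-C replicate 2 or any IVDS2-P or IVDS3 array (adjusted p from 0.0776 to 0.32). No difference of CCL20 from ES was called with all arrays. Without ES replicate 1 it was called lower in IVDS2 (adjusted p = 0.00645), IVDS2-P (adjusted p = 0.0111) and IVDS3 (adjusted p = 0.0181), and without ES replicate 2 it was called in IVDS2-C (adjusted p = 0.037).

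CCL8, a further monocyte attractant, rose at IVDS3 by 1.02 ± 0.13 over ES (adjusted p = 0.000247), on 1 of its 2 probe sets (2.07 and -0.02). CCL27, which draws T cells to skin, read 0.30 and 0.37 in ES and -0.19 and -0.24 in IVDS3, and fell by 0.55 on the log2 scale (SE 0.11, adjusted p = 0.00362). It was also lower in IVDS2-C (-0.44 ± 0.11), a call lost without ES replicate 2 or IVDS2-C replicate 2 (adjusted p from 0.0649 to 0.16). CCL3 (0.55 ± 0.20) and CCL21 (-0.33 ± 0.12) passed the threshold at IVDS3 with adjusted p of 0.0437 and 0.0489. The call of CCL3 was lost without ES replicate 1, IVDS3 replicate 2 or any array of IVDS2 or IVDS2-P (adjusted p from 0.0599 to 0.288), and that of CCL21 without any array but ES replicate 1 (adjusted p from 0.0537 to 0.229).

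Among the 10 chemokine receptors, CCR2 was the other one called besides CXCR4. It read -0.56 and 0.10 in ES, 0.75 and 0.74 in IVDS2, 1.26 and 0.50 in IVDS2-C, -0.38 and -0.10 in IVDS2-P, and -0.51 and -0.57 in IVDS3. The arrays of whole IVDS2 cultures and of the centre were high, and those of the periphery and of IVDS3 low. The fall from IVDS2 to IVDS3 was -1.28 ± 0.26 (adjusted p = 0.00452), and the centre exceeded the periphery by 1.12 ± 0.26 (adjusted p = 0.0326). That call was lost without IVDS2-C replicate 1 or any IVDS2-P or IVDS3 array (adjusted p from 0.0577 to 0.182). Against ES the call in IVDS2 (0.98 ± 0.26, adjusted p = 0.0431) was lost without 7 of the 10 arrays, all but ES replicate 2 and those of IVDS2-C (adjusted p from 0.0594 to 0.162). The one in IVDS2-C (1.11 ± 0.26, adjusted p = 0.0132) was lost without ES replicate 1 or IVDS2-C replicate 1 (adjusted p from 0.0646 to 0.068). CXCR3 and CCR6, the receptors of CXCL11 and CCL20, were called in no comparison and had ranges over the 10 arrays of 0.66 and 0.44.

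Of the 31 interleukin receptor chains, 9 had risen and 4 had fallen at IVDS3 against ES, where 21.1% of all genes were higher and 28.6% lower. IL10RB, a chain shared by the receptors of IL-10, IL-22 and type III interferons, differed most. It read -1.59 and -1.55 in ES, 0.01 and -0.01 in IVDS2, 0.41 and 0.92 in IVDS2-C, -0.40 and -0.42 in IVDS2-P, and 1.77 and 1.81 in IVDS3. The groups did not overlap, in the order ES, IVDS2-P, IVDS2, IVDS2-C and IVDS3.

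IL10RB was called in all 6 planned comparisons whichever array was left out, with 1.57 ± 0.15 for IVDS2 against ES (adjusted p = 0.000484) and 1.16 ± 0.15 for IVDS2-P against ES (adjusted p = 0.00307). The rise from ES to IVDS3 was 3.36 ± 0.15 (10.3-fold, adjusted p = 1.05e-06), and the centre exceeded the periphery by 1.07 ± 0.15 (adjusted p = 0.00418). The neighbours IVDS2-C and IVDS2 differed by 0.66 ± 0.15 (adjusted p = 0.042), a call lost without either array of IVDS2, IVDS2-P or IVDS3 or without IVDS2-C replicate 2 (adjusted p from 0.0666 to 0.254). It has 1 probe set.

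IL20RA, a receptor chain for cytokines of the IL-20 group that act on epithelia, read 0.10 and -0.10 in ES, -0.65 and -0.31 in IVDS2, 0.21 and 0.53 in IVDS2-C, -0.41 and -0.33 in IVDS2-P, and 1.96 and 1.84 in IVDS3. The centre lay above ES and the other stage 2 arrays, and IVDS3 above all. IVDS3 exceeded ES by 1.90 ± 0.16 (adjusted p = 2.05e-05), and the centre exceeded the periphery by 0.74 ± 0.16 (adjusted p = 0.0221). The latter call was lost without IVDS2-C replicate 2 or either IVDS2-P array (adjusted p from 0.0853 to 0.188).

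IL1RAP, the accessory chain of the receptors for IL-1, IL-33 and IL-36, read 0.24 and 0.13 in ES, -0.63 and -0.53 in IVDS2, -0.13 and 0.69 in IVDS2-C, -0.27 and -0.95 in IVDS2-P, and 1.88 and 2.03 in IVDS3. Only IVDS3 was called against ES (1.77 ± 0.27, adjusted p = 0.000647). IL1R2, a decoy receptor for IL-1, rose too (0.97 ± 0.17, adjusted p = 0.00122), with 0.51, 1.79 and 0.60 on its 3 probe sets. IL6ST (gp130), the signalling chain for the IL-6 family, read -0.65 and -0.89 in ES, -0.50 and 0.04 in IVDS2, -0.03 and 0.95 in IVDS2-C, -0.17 and 0.03 in IVDS2-P, and 0.38 and 0.71 in IVDS3. It exceeded ES by 1.31 ± 0.30 at IVDS3 (adjusted p = 0.00576) and by 1.23 ± 0.30 in IVDS2-C (adjusted p = 0.0146), the latter lost without ES replicate 2 or IVDS2-C replicate 2 (adjusted p from 0.076 to 0.0832). IL6R, the chain that binds IL6, was called in no comparison.

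Of the 6 chains named IL17R, 2 rose and 2 fell at IVDS3 against ES, and IL17RE and IL17REL were called in no planned comparison. IL17RC and IL17RA, the chains through which IL-17A and IL-17F signal, rose at IVDS3 by 1.35 ± 0.15 (adjusted p = 9.42e-05) and 0.71 ± 0.14 (adjusted p = 0.00248). IL17RD, which also restrains FGF signalling, fell (-1.03 ± 0.17, adjusted p = 0.00087). IL17RB, the receptor for IL-25, read 0.44 and -0.05 in ES, 0.17 and 1.02 in IVDS2, -0.25 and -0.41 in IVDS2-C, 0.07 and 0.12 in IVDS2-P, and -0.75 and -0.70 in IVDS3. It was lowest at IVDS3 and fell there against IVDS2 (-1.32 ± 0.25, adjusted p = 0.00309). Its call against ES (-0.92 ± 0.25) was lost without ES replicate 1 or either IVDS3 array (adjusted p from 0.0564 to 0.0884).

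The remaining called chains had smaller differences. At IVDS3 against ES, IL10RA, the ligand-binding chain for IL-10, was higher (0.74 ± 0.17), and IL1RAPL1 (-0.53 ± 0.15) and IL12RB2 (-0.38 ± 0.11) were lower. The call of IL10RA was lost without IVDS3 replicate 2 (adjusted p = 0.0552), that of IL1RAPL1 without ES replicate 1 or IVDS3 replicate 2 (0.0617 to 0.126) and that of IL12RB2 without IVDS3 replicate 1 (0.0884). IL12RB2 also fell in IVDS2-C against ES (-0.58 ± 0.11, adjusted p = 0.00404), whichever array was left out, and in IVDS2-P (-0.42 ± 0.11, adjusted p = 0.0382). The IVDS2-P call was lost without 7 of the 10 arrays, all but ES replicate 1 and those of IVDS2 (adjusted p from 0.0564 to 0.162). IL13RA1 was called in IVDS2 against ES (-0.38 ± 0.11, adjusted p = 0.0493), a call lost without any 1 of the 10 arrays (adjusted p from 0.0509 to 0.184).

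TNFSF10 (TRAIL), a ligand that can trigger apoptosis, and TNFSF13B (BAFF), a survival factor for B cells, were the TNF superfamily ligands that rose at IVDS3. TNFSF10 read 0.04 and 0.14 in ES, from -0.27 to 0.12 at stage 2, and 3.18 and 2.80 in IVDS3 (2.90 ± 0.14 over ES, 7.47-fold, adjusted p = 1.26e-06). Its 3 probe sets gave 3.91, 0.23 and 4.56. TNFSF13B read -0.19 and -0.29 in ES, from -0.32 to 0.24 at stage 2, and 2.55 and 2.52 in IVDS3 (2.77 ± 0.16, 6.84-fold, adjusted p = 3.52e-06). Neither gene was called between centre and periphery, and no other array came near those of IVDS3.

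TNFSF11 (RANKL), which drives osteoclast formation, read 0.75 and 0.53 in ES, -0.08 and 0.30 in IVDS2, -0.23 and -0.52 in IVDS2-C, 0.24 and 0.12 in IVDS2-P, and -0.39 and -0.33 in IVDS3. It fell against ES in IVDS3 (-1.00 ± 0.16, adjusted p = 0.000788) and in IVDS2-C (-1.01 ± 0.16, adjusted p = 0.00189). TNFRSF11B (osteoprotegerin), the decoy receptor of TNFSF11 and TNFSF10, read -1.05 and -1.99 in ES, 0.12 and 0.47 in IVDS2, 0.05 and 0.00 in IVDS2-C, 0.53 and 0.93 in IVDS2-P, and -1.04 and -1.47 in IVDS3. It was high at stage 2 and low at both ends.

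TNFRSF11B exceeded ES by 1.82 ± 0.29 in IVDS2 (adjusted p = 0.00445), 1.55 ± 0.29 in IVDS2-C (adjusted p = 0.0046) and 2.25 ± 0.29 in IVDS2-P (adjusted p = 0.00274). It fell from IVDS2 to IVDS3 (-1.55 ± 0.29, adjusted p = 0.00278). TNFSF4 (OX40L), a T cell costimulator, read -0.29 and -1.25 in ES, 0.47 and 0.43 in IVDS2, 0.50 and 0.03 in IVDS2-C, -0.03 and 0.18 in IVDS2-P, and -0.30 and -0.47 in IVDS3. Its calls in IVDS2-C against ES (higher) and in IVDS3 against IVDS2 (lower) were each lost without some array. Its call in IVDS2 against ES (1.22 ± 0.28, adjusted p = 0.0223) was lost without ES replicate 2 or either IVDS2 array (adjusted p from 0.0696 to 0.0998).

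TNFRSF19 (TROY) read -0.74 and -1.36 in ES, 0.31 and 0.59 in IVDS2, 0.02 and -0.17 in IVDS2-C, 0.17 and 0.45 in IVDS2-P, and -0.45 and 0.03 in IVDS3. It was called higher than ES in every other group, but its calls in IVDS2-C and IVDS3 were each lost without some array. It was lowest in ES and highest in IVDS2, where the difference was 1.50 ± 0.23 (adjusted p = 0.00389). In IVDS2-P it was 1.36 ± 0.23 (adjusted p = 0.00785), which missed the threshold once IVDS2-P replicate 2 was left out (adjusted p = 0.0758).

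TNFRSF1B (TNF receptor 2) read -0.78 and -0.30 in ES, -0.03 and 0.03 in IVDS2, 0.48 and 0.59 in IVDS2-C, -0.56 and -0.39 in IVDS2-P, and 0.92 and 1.12 in IVDS3. It rose in IVDS3 against ES by 1.56 ± 0.16 (adjusted p = 7.08e-05), with 2.98 and 2.52 on a pair of probe sets and -0.82 on the other one. Between centre and periphery the difference was 1.01 ± 0.16 (adjusted p = 0.00699), lost without IVDS2-C replicate 2 or IVDS2-P replicate 1 (adjusted p from 0.0557 to 0.064). TNFRSF14 (HVEM) read from -0.33 to 0.22 outside IVDS3 and 1.19 and 1.19 there (1.24 ± 0.16 over ES, adjusted p = 0.000246).

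TNFRSF12A, the receptor of the cytokine TWEAK, was low in the periphery. It read -0.35 and 0.19 in ES, -0.44 and 0.09 in IVDS2, -0.09 and 0.92 in IVDS2-C, -2.09 and -0.88 in IVDS2-P, and 0.29 and 0.58 in IVDS3. The centre exceeded the periphery by 1.90 ± 0.43 (adjusted p = 0.0275), which missed the threshold without IVDS2-C replicate 2 or IVDS2-P replicate 1 (adjusted p from 0.158 to 0.207). TNFRSF21 read 0.15 and 0.59 in IVDS2 and -0.41 and -0.17 in IVDS3 (-0.66 ± 0.19, adjusted p = 0.0229), which missed the threshold without IVDS2 replicate 2 or IVDS3 replicate 1 (adjusted p from 0.142 to 0.163).

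**Figure D5:**
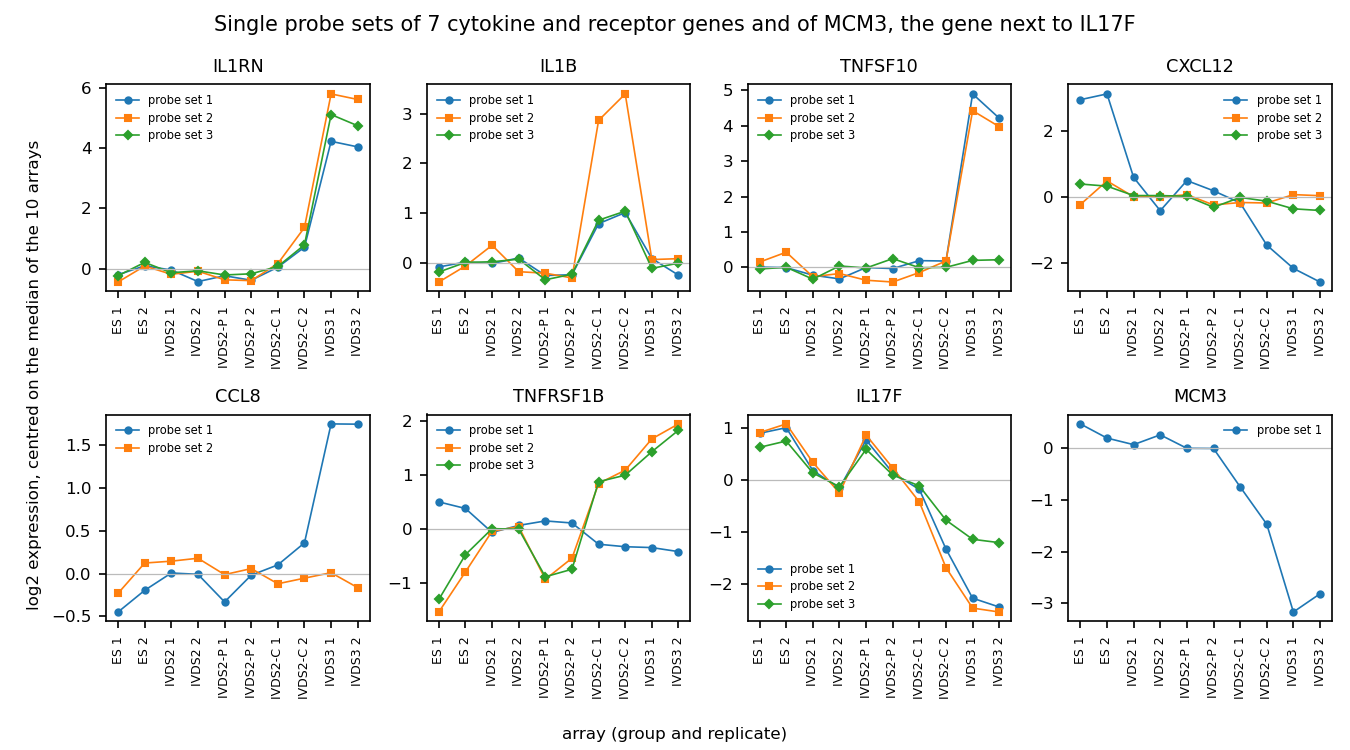
Log2 expression, centred on the 10-array median (vertical axes), of each probe set of 7 cytokine and receptor genes and of MCM3 on each array (horizontal axes). The 3 probe sets of IL1RN run together, 1 of 3 of TNFSF10 and 1 of 2 of CCL8 stay near 0, the fall of CXCL12 lies mostly on 1 probe set, and 1 of 3 of TNFRSF1B runs against the others.

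The probe sets of a gene mostly had the same sign. Size was not compared, so TNFSF10 and CXCL12 count as agreeing at IVDS3 against ES although a probe set of each changed little. Of the 18 genes called between IVDS3 and ES that have at least 2 probe sets, 16 had all of them on the same side, the exceptions being CCL8 and TNFRSF1B. For centre against periphery it was 3 of 4, with TNFRSF1B as the exception. It was 17 of 20 for IVDS3 against IVDS2 (not CCL8, CXCL12 and TNFRSF1B) and 15 of 16 for IVDS3 against IVDS2-C (not IL1R2). Against ES it was 8 of 10 in IVDS2-C (not CXCL13 and TNFRSF1B), 4 of 5 in IVDS2-P (not CXCL13) and 5 of 5 in IVDS2. For IVDS2-C against IVDS2 it was 2 of 2.

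The 63 genes called in no planned comparison had ranges over the 10 arrays from 0.20 to 0.98 (IL13) and a median range of 0.47. Small ranges are in part set by this selection, since a gene with a large difference between groups tends to be called. The 63 genes include 12 CC chemokines, among them CCL5 and CCL19, 8 chemokine receptors, 17 interleukin receptor chains, among them IL2RG and IL4R, and the TRAIL receptors TNFRSF10A and TNFRSF10B. With 2 arrays a group, a difference that missed the threshold is not shown to be absent.

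Genes that pass on these signals were followed through lists. Of 27 measured genes of NF-kB and TNF receptor signalling, 9 had risen and 4 had fallen at IVDS3 against ES (list median 0.25, all genes -0.13), where 21.1% of all genes were higher and 28.6% lower. The risen genes with the largest differences were NFKBIZ, a nuclear partner of NF-kB (2.98 ± 0.30), the subunit NFKB1 (1.66 ± 0.17), the caspase regulator CFLAR (1.48 ± 0.15), the kinase IKBKB (1.25 ± 0.18), CASP8 (1.14 ± 0.26) and the feedback inhibitor TNFAIP3 (1.01 ± 0.16). Only 1 of the falls was called without IVDS3 replicate 1.

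Between centre and periphery 4 genes of this list were called, all higher in the centre (list median 0.19, all genes -0.03). Of all genes 5.64% were higher in the centre. TNFAIP3 read 0.74 and 1.09 in IVDS2-C and -0.36 and 0.06 in IVDS2-P (1.07 ± 0.16, adjusted p = 0.00522), and its call held whichever array was left out. NFKBIZ (1.47 ± 0.30), TRAF4 (0.74 ± 0.19) and NFKB1 (0.69 ± 0.17) were not called without IVDS2-C replicate 2 or IVDS2-P replicate 1. TRAF4 and NFKB1 were not called without IVDS2-P replicate 2 or any IVDS2 or IVDS3 array either (adjusted p from 0.0523 to 0.332). Without IVDS2-C replicate 2 or IVDS2-P replicate 1, TNFAIP3 was the 1 gene of the list called.

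Of 20 measured genes of JAK-STAT signalling and its inhibitors, 6 had risen and 3 had fallen at IVDS3 against ES (list median -0.05, all genes -0.13), against the same 21.1% and 28.6% of all genes. Between centre and periphery limma called 0 of them, with 4 at an unadjusted p under 0.05. The largest called differences between IVDS3 and ES were those of STAT6, the transducer of IL-4 and IL-13 (1.81 ± 0.16), the phosphatase PTPN6 (1.04 ± 0.22), JAK2 (0.90 ± 0.19), PIAS2 (-0.79 ± 0.12), STAT2 (0.76 ± 0.14) and PIAS1 (0.70 ± 0.15). Without IVDS3 replicate 2 the list had 1 fall, and without ES replicate 1 it had 6.

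Of 14 measured Toll-like receptors and adaptors shared with the IL-1 receptor, 3 had risen and 3 had fallen at IVDS3 against ES. The list median was 0.06 (all genes -0.13), and 21.1% of all genes were higher and 28.6% lower. Between centre and periphery limma called 0 of the 14 genes, with 1 at an unadjusted p under 0.05. TLR3, the sensor of double-stranded RNA (3.19 ± 0.19), and TLR5, the receptor of flagellin (1.46 ± 0.24), rose at IVDS3 against ES, and the inhibitory kinase IRAK3 fell (-1.08 ± 0.23). PYCARD (0.46 ± 0.15), TLR7 (-0.46 ± 0.11) and IRAK1 (-0.32 ± 0.11) were called with all arrays. TLR7 lost the call without IVDS3 replicate 2 (adjusted p = 0.0548), PYCARD without ES replicate 1 or IVDS3 replicate 1 (0.127 to 0.166), and IRAK1 without any array but those of IVDS2 (0.0516 to 0.237).

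Among 46 measured cytokines and receptors whose names lie outside the rule, 8 had risen and 13 had fallen at IVDS3 against ES (list median -0.15). Of all genes 21.1% were higher and 28.6% lower (median -0.13). In the centre 4 genes of the list were higher than in the periphery, against 5.64% of all genes. At IVDS3 the largest differences were those of EDAR, a receptor of ectodermal appendages (1.49 ± 0.16), KITLG (1.11 ± 0.33), the death receptor FAS (-1.03 ± 0.20), EPOR (-1.00 ± 0.27), CRLF3 (-1.00 ± 0.14) and OSMR, which pairs with IL6ST (0.96 ± 0.18). KITLG was not called without ES replicate 2 or IVDS3 replicate 2 (adjusted p from 0.113 to 0.138), nor EPOR without IVDS3 replicate 2 (adjusted p = 0.0844). The falls numbered 6 without ES replicate 2 or IVDS3 replicate 2, and none of the 4 genes was called between centre and periphery without IVDS2-C replicate 2 or IVDS2-P replicate 1.

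Markers of cell types were read over the same groups. All 11 measured markers of stratified epithelium had risen at IVDS3 against ES, from GRHL3 (2.42) to KRT4 (8.56), and 5 of 11 were higher in the centre than in the periphery, up to SFN (2.73). Their mean read -0.74 and -0.69 in ES, 0.15 and 0.05 in IVDS2, 0.41 and 0.96 in IVDS2-C, -0.65 and -0.58 in IVDS2-P, and 3.97 and 3.80 in IVDS3. Of 11 fibroblast markers, 7 had risen and 2 had fallen at IVDS3, from THY1 (-1.31) to LUM (5.48). In the centre 3 were higher and 1 was lower than in the periphery. Over all genes 21.1% were higher and 28.6% lower at IVDS3, and 5.64% were higher and 3.95% lower in the centre. The fibroblast mean read -0.08 and -0.21 in ES, -0.18 and -0.01 in IVDS2, 0.36 and 0.28 in IVDS2-C, -0.09 and -0.11 in IVDS2-P, and 1.44 and 1.23 in IVDS3. Both means were highest on the IVDS3 arrays and next highest on the centre arrays. That order was also seen, among others, in IL36RN, IL10RB, IL20RA, TNFRSF1B and IL18. It was not seen in IL1B, IL6 and CXCL8, which were highest on the centre arrays.

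Of 12 leukocyte markers, 4 had risen and 2 had fallen at IVDS3, from ITGAM (-2.14) to LYZ (4.98). Over all genes 21.1% were higher and 28.6% lower there. The defining marker PTPRC (CD45) read from -0.31 to 0.31 over the 10 arrays and CD14 from -0.16 to 0.36, with IVDS3 at 0.02 and 0.19 and at 0.27 and 0.14. The macrophage markers CD68 (0.83 ± 0.15) and CSF1R (0.83 ± 0.17) rose at IVDS3 against ES and kept the call whichever array was left out. ITGAM, which also marks macrophages, fell (-2.14) and kept its call in the same way. AIF1, a further macrophage marker, was not called and read -0.01 and 0.30 in ES and 0.16 and -0.03 in IVDS3. CD68 read -0.36 and -0.24 in ES and 0.70 and 0.37 in IVDS3, and CSF1R read -0.04 and -0.15 in ES and 0.64 and 0.83 in IVDS3. The leukocyte mean was 0.06 and 0.22 in ES, from -0.14 to 0.13 at stage 2, and 0.45 and 0.48 in IVDS3. Its rise rested mostly on LYZ, which read -0.69 and -0.50 in ES and 4.32 and 4.46 in IVDS3. The median difference of the list between IVDS3 and ES was 0.01 (all genes -0.13). Of 9 endothelial markers 3 had fallen (28.6% of all genes), from TEK (-2.49) to EMCN (0.08). Their mean was 0.23 and 0.41 in ES, from -0.11 to 0.12 at stage 2, and -0.18 and -0.35 in IVDS3. Because the values are centred, whether a marker was near 0 in absolute terms cannot be read. The part of other cell types in the cytokine and receptor results was not tested.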

How the data were processed

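Rhesus arrays of 10 samples in 5 groups of 2 were analysed. The authors deposited RMA values, per the submitters' processing notes without a version, taken here as log2. No source names the base, which follows from RMA itself and from a largest range of 9.51 over the arrays. Deposited values had a median of 0 in every probe set (0 of 44294 beyond 1e-05), so they were centred and dim probe sets could not be filtered. After 84 control probe sets were left out, 44210 remained, of which 22802 carried 1 gene in the platform annotation, 316 several and 21092 none. Probe sets of 1 gene were averaged to 13191 genes. Of the probe sets with several genes 1 matched the rule and was not used. All 118 genes matched the RefSeq table of T2T-MMU8v2.0 by gene number, and 0 names differed. Sequences were not used here, and gene positions only to place IL17F next to MCM3.

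limma 3.58.1 in R 4.3.3 was run on all arrays with a coefficient for each group (lmFit and eBayes, 5 residual and 3.94 prior degrees of freedom, prior SD 0.142), adjusted by Benjamini-Hochberg within each comparison. The script was tested on simulated data. Few arrays limit the precision. Genes and lists were chosen with earlier results of these data known. Every gene called in a planned comparison is named. Array values are given for those called between centre and periphery and for some others, mostly with a wide span of group means. Genes such as IL17RC, CCL8 and CXCL16 also have a wide span in their class but are given by differences only. From each pathway list up to 6 called genes with the largest difference between IVDS3 and ES are named. Alternatives were each array centred on its median, fits of just the 4 arrays in a comparison, a replicate block, each array left out in turn, each gene read by its most variable probe set, leaving out probe sets that can hybridise to several transcripts, single probe sets, and an added 2-fold threshold.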

Additional observations from a re-analysis of the deposited data

How the results depend on the processing

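None of the 169 calls of cytokine and receptor genes, over the 6 planned and 2 added comparisons, changed sign under the alternatives that refit gene values. With an added 2-fold threshold the counts were 23 for IVDS3 against ES, 22 for IVDS3 against IVDS2 and 21 for IVDS3 against IVDS2-C. With only the 4 arrays compared, limma called 0 of the 118 genes between IVDS2-C and IVDS2 (17 at an unadjusted p under 0.05), and 12 of all genes. All other counts from settings that left out no array were within 1.5 times of those reported. Leaving out 1 array gave counts from 4 to 11 for IVDS2 against ES, 30 to 60 for IVDS3 against ES, 16 to 37 for IVDS2-C against ES, 4 to 23 for IVDS2-P against ES, 5 to 16 for centre against periphery, 30 to 44 for IVDS3 against IVDS2, 20 to 36 for IVDS3 against IVDS2-C and 3 to 12 for IVDS2-C against IVDS2. The share of all genes called in these fits is not given, so the counts cannot be set against it. A group left with 1 array was assumed to vary like the others. The cause of these changes was not tested.

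With the replicate number as a block the counts were 9, 40, 21 and 8 against ES (IVDS2, IVDS3, IVDS2-C and IVDS2-P), 11 between centre and periphery and 39 between IVDS3 and IVDS2. The block kept 162 of the 169 calls and added 6. The labels do not say that equal numbers share a culture. Replicate differences correlated across genes at -0.21 to 0.28 between groups, above 0.1 in 5 of 10 pairs of groups. These values do not settle whether equal numbers share a source. The main fit did not treat the samples as paired. The limits are 2 arrays a group, no absolute levels, and genes read by 1 probe set (73 of 118).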
